A study of Mus musculus with 6 samples.

Results

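The insulin-like growth factor (IGF) genes described here are 10 in number: the ligand gene Igf1, the receptor gene Igf1r, 6 binding protein genes (Igfbp2 to Igfbp7) and the receptor substrate genes Irs1 and Irs2. They were chosen by name, and their members are all array probes whose annotated gene symbol is one of these 10, which gave 23 of 45281 probes. RNA came from mammary tumours of female FVB mice aged 12 weeks, and the 6 Illumina bead arrays held 3 PyMT control and 3 PyMT/ETP tumours. All 6 tumours carried PyMT, the middle T antigen of polyomavirus, which the promoter of mouse mammary tumour virus (MMTV) expresses in epithelial cells of the gland. The PyMT/ETP tumours, also labelled PyMT/C5, carried in addition a transgene for endotrophin, a cleavage product from the carboxy terminus of collagen VI alpha 3, whose promoter the labels do not name. Nothing in the labels says that each array came from a different mouse, so all intervals and p-values below measure the spread between these samples, which may be technical.

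IGF1 is a circulating and locally made growth factor that signals through the tyrosine kinase receptor encoded by Igf1r. The activated receptor phosphorylates the insulin receptor substrates IRS1 and IRS2, which recruit PI3-kinase and so activate AKT. In the extracellular space the binding proteins hold most of the ligand, and depending on the protein and its cleavage by proteases they keep IGF from the receptor or deliver it. In the mammary gland, stromal cells are the usual source of local IGF1, the epithelium carries the receptor, and IGFBP5 is known for its rise during involution.

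For none of the 10 genes did the difference between the PyMT/ETP and the control group pass the test. By limma, at a threshold of 0.05 on the adjusted p, 0 of the 18 member probes above the background filter and 0 of the 10 genes passed, where 0% of all 24893 probes and 0% of all 12864 genes tested did. The lowest adjusted p among the members was 0.997. At an unadjusted p of 0.05 there were 0 of 10 members, beside 4.31% of all genes. Of the members, 6 had a positive and 4 a negative log2 difference (PyMT/ETP minus PyMT control), with a median of 0.09, and over all genes 50.8% were positive with a median of 0.004. The differences ran from -0.29 for Igfbp3 to 0.27 for Irs1. The groups were apart in 1 gene, Irs1, beside 8.17% of all genes.

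**Figure D1:**
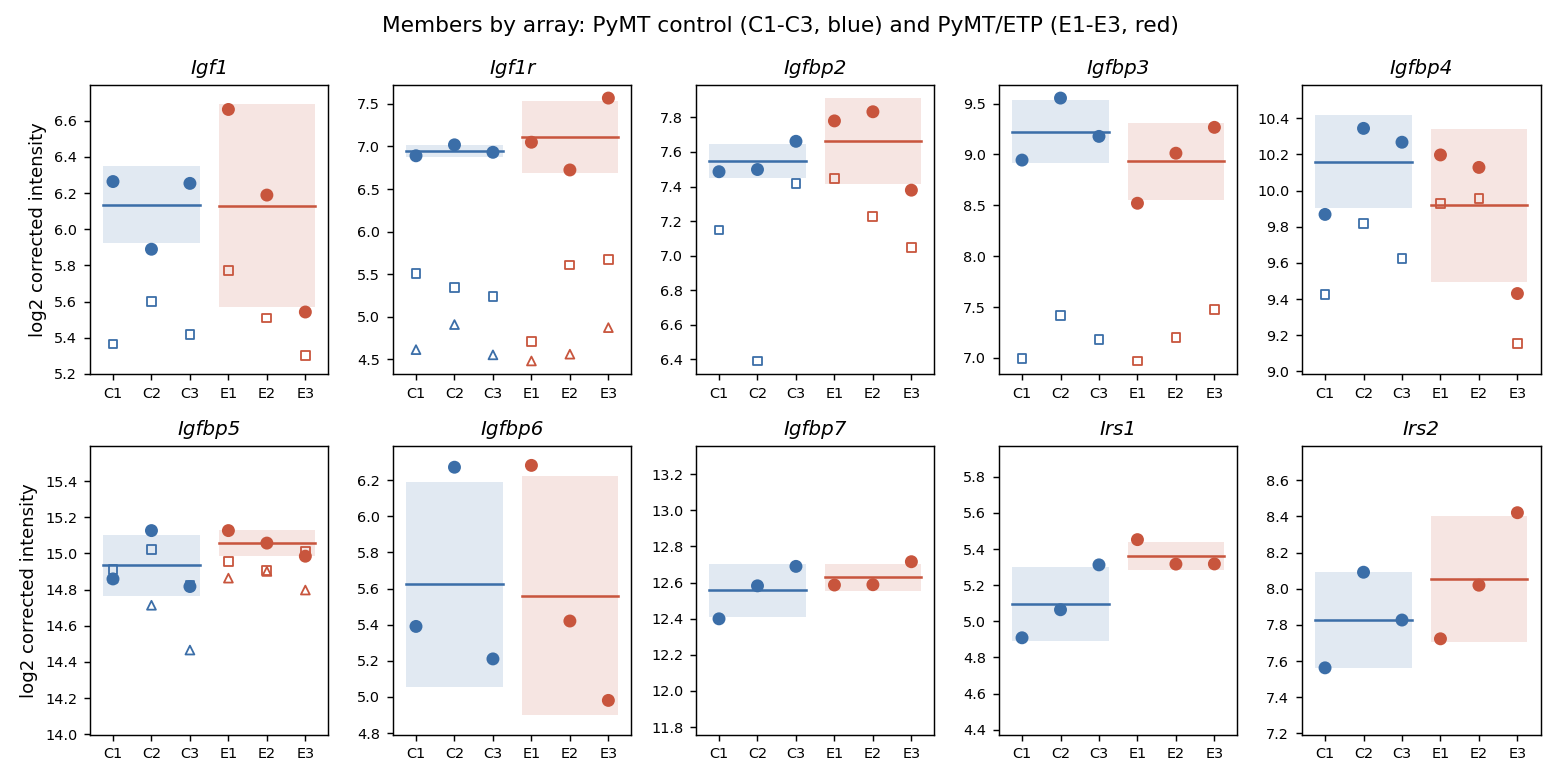
Log2 background-corrected intensity of the 10 genes on each of the 6 arrays (C1 to C3, PyMT control replicates 1 to 3; E1 to E3, PyMT/ETP replicates 1 to 3). Filled circles are the brightest probe of a gene with its group mean (line) and SD (shading, n = 3), open symbols are its other tested probes, and each panel has its own vertical scale. The groups overlap in every panel but that of Irs1, where the lowest PyMT/ETP value is 5.317 and the highest control value 5.312.

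Values are log2 units of background-corrected intensity after an offset of 16 was added, which understates the fold differences of dim probes. Each gene is given by its brightest probe, with limma's fit over all genes. Where a gene has further tested probes their differences come from the fit over all probes. How bright a probe is depends on its sequence as well as on its transcript, so levels are not compared between genes.

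Igf1, the ligand, was at 6.26, 5.89 and 6.25 in PyMT control replicates 1 to 3 and at 6.66, 6.19 and 5.54 in PyMT/ETP replicates 1 to 3. Both the highest and the lowest value thus lay in the PyMT/ETP group, which enclosed the controls. The means were 6.14 ± 0.21 and 6.13 ± 0.56 (SD, n = 3). This was a log2 difference of -0.004 (SE 0.27). Its 95% confidence interval, -0.62 to 0.61, leaves room for any change between 0.651-fold and 1.53-fold on the scale with the offset. The width of this interval depended on the background step: without background correction the SE was 0.138. The probe read 116.8 to 171.5 intensity units, against the background limit of 94.0. The second Igf1 probe, at 5.30 to 5.77, also had PyMT/ETP replicate 1 as its highest and PyMT/ETP replicate 3 as its lowest array, with a log2 difference of 0.07. Without PyMT/ETP replicate 3 the Igf1 difference was 0.29, and its sign turned in 6 other alternatives.

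Igf1r, the receptor, was at 6.89, 7.02 and 6.93 in the control tumours and at 7.05, 6.72 and 7.57 in the PyMT/ETP tumours. The controls lay close together, and PyMT/ETP replicate 3 stood above the other 5 arrays. The means were 6.95 ± 0.07 and 7.11 ± 0.43 (SD, n = 3), with a log2 difference of 0.17 (SE 0.21, 95% confidence interval -0.32 to 0.65). Without PyMT/ETP replicate 3 that difference was -0.06, and without PyMT/ETP replicate 2, the lowest array, it was 0.36. A second Igf1r probe had PyMT/ETP replicate 3 as its highest array too, at 5.67, but PyMT/ETP replicate 1 as its lowest, at 4.71, an array on which the brightest probe had its second highest value. Its log2 difference was -0.03. The dimmest tested probe, above the background limit on 3 of 6 arrays, gave -0.05, and the remaining one was above it on 1 array and was not tested.

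Igfbp5 encodes a binding protein with a heparin-binding region that attaches to the extracellular matrix. Its brightest probe was at 14.86, 15.13 and 14.82 in the control and at 15.13, 15.06 and 14.98 in the PyMT/ETP tumours. PyMT control replicate 2 and PyMT/ETP replicate 1 shared the highest value. The log2 difference was 0.12 (SE 0.14), with a 95% confidence interval of -0.21 to 0.45, or 0.866-fold to 1.37-fold, and the other Igfbp5 probes gave 0.04 and 0.17. With 1 array left out it ran from 0.06, without PyMT control replicate 3, to 0.22, without PyMT control replicate 2. PyMT control replicate 3 was the lowest array for all 3 probes. These signals lay at the very top of the arrays: on every array each of the 3 probes was among the 67 brightest of 45281, and on 2 arrays an Igfbp5 probe was the brightest of all. Because all arrays had been given the same set of values before deposit, a rank of 1 reads 35836 on any of them. An increase above that value could therefore not appear, and the span from it down to the dimmest Igfbp5 value was 1.58-fold. Whether these beads were near the limit of the scanner was not tested.

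Igfbp7 encodes a related secreted protein that binds IGFs weakly and is abundant in vessel walls. Its brightest probe was at 12.40, 12.58 and 12.69 in the control and at 12.59, 12.59 and 12.72 in the PyMT/ETP tumours. This was the steadiest of the 10 genes, with an SD over all 6 arrays of 0.11. The log2 difference was 0.07 (SE 0.14), with an interval from 0.842-fold to 1.31-fold. Its sign rested on PyMT control replicate 1, the lowest array, without which it was -0.006. Leaving out PyMT control replicate 3 raised it to 0.14, and leaving out PyMT/ETP replicate 3 lowered it to 0.03. The other 4 Igfbp7 probes, annotated to the same transcript accession, were at or below 88.8 intensity units on every array, under the background limit of 94.0, against 5472 to 6795 units for the bright one. They were not tested.

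Igfbp4, whose product mainly inhibits IGF action and is cleaved by the protease PAPP-A, was at 9.87, 10.34 and 10.27 in the control and at 10.20, 10.13 and 9.43 in the PyMT/ETP tumours. PyMT/ETP replicate 3 was the lowest array for both of its probes. The means were 10.16 ± 0.26 and 9.92 ± 0.42 (SD, n = 3). This was a log2 difference of -0.24 (SE 0.23, 95% confidence interval -0.77 to 0.29). Without PyMT/ETP replicate 3 the difference was 0.003, and the second probe gave 0.06 with all arrays.

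Igfbp3, the main carrier of IGF in the circulation together with the acid-labile subunit, was at 8.94, 9.55 and 9.18 in the control and at 8.52, 9.01 and 9.27 in the PyMT/ETP tumours. The groups overlapped, with PyMT control replicate 2 highest and PyMT/ETP replicate 1 lowest. With all arrays the log2 difference was the most negative of the 10, at -0.29 (SE 0.23), with an interval from 0.567-fold to 1.18-fold. The second Igfbp3 probe kept PyMT/ETP replicate 1 as the lowest array, at 6.97, but had PyMT/ETP replicate 3 as the highest, at 7.47. Its log2 difference was 0.02. The difference of the brightest probe was -0.09 without PyMT/ETP replicate 1 and -0.13 without PyMT control replicate 2, and it was -0.46 without PyMT/ETP replicate 3. The mean of both probes gave -0.14.

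Igfbp2, a binding protein with an integrin-binding motif, was at 7.49, 7.50 and 7.66 in the control and at 7.78, 7.83 and 7.38 in the PyMT/ETP tumours. PyMT/ETP replicates 1 and 2 were above all controls and PyMT/ETP replicate 3 was below them. The log2 difference was 0.12 (SE 0.16, 95% confidence interval -0.26 to 0.49), and with 1 array left out it ran from 0.03, without PyMT/ETP replicate 2, to 0.26, without PyMT/ETP replicate 3. It was 0.06 without PyMT/ETP replicate 1. A second probe gave 0.25, and its lowest array was PyMT control replicate 2, at 6.39 against 7.05 to 7.44 elsewhere.

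Igfbp6, whose product prefers IGF2 as its ligand, varied most between arrays on the background-corrected log2 scale. It was at 5.39, 6.27 and 5.21 in the control and at 6.28, 5.42 and 4.98 in the PyMT/ETP tumours, so that 1 tumour of each group stood high and the other 4 lay at 5.42 or below. With the offset included, the highest array was 2.46-fold above the lowest. Before background correction these 2 arrays read 148.0 and 101.7 intensity units. The means were 5.62 ± 0.57 and 5.56 ± 0.66 (SD, n = 3). This was a log2 difference of -0.06 (SE 0.37), and the interval, 0.535-fold to 1.71-fold, was the widest of the 10. That rank depended on the background step: without background correction the SE was 0.164, below 0.184 for Igfbp3 and 0.195 for Igfbp4. Without PyMT control replicate 2 the difference was 0.26, without PyMT/ETP replicate 3 it was 0.23, and without PyMT/ETP replicate 1 it was -0.42.

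Irs1, the substrate that couples the receptor to PI3-kinase in most tissues, was dim, at 100.2, 103.6 and 109.9 intensity units in the control and at 113.9, 110.0 and 110.1 in the PyMT/ETP tumours, against the background limit of 94.0. On the log2 scale the groups were separated by the gap between 5.312 in PyMT control replicate 3 and 5.317 in PyMT/ETP replicate 2. The log2 difference was 0.27 (SE 0.15), with a 95% confidence interval of -0.08 to 0.61. Its size depended on the background step: it was 0.14 with an offset of 50 and 0.09 without background correction, where Irs2 had 0.20 and 0.18. An exact permutation test gave a two-sided p of 0.1, the smallest that 3 arrays against 3 allow. Every gene whose groups do not overlap has that p, so it adds nothing to the separation already described. With 1 array left out the difference ran from 0.17, without PyMT control replicate 1, to 0.38, without PyMT control replicate 3. Its adjusted p from limma was 0.997.

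Irs2, the second substrate and a gene that FOXO factors induce when insulin or IGF signalling is low, was at 7.56, 8.09 and 7.83 in the control and at 7.72, 8.02 and 8.42 in the PyMT/ETP tumours. PyMT/ETP replicate 3 was the highest array, as it was for Igf1r, and PyMT control replicate 1 the lowest, as it was for Irs1 and Igfbp7. The means were 7.83 ± 0.26 and 8.05 ± 0.35 (SD, n = 3). This was a log2 difference of 0.23 (SE 0.21, 95% confidence interval -0.26 to 0.72). With 1 array left out it ran from 0.04, without PyMT/ETP replicate 3, to 0.39, without PyMT/ETP replicate 1. Leaving out PyMT control replicate 1 gave 0.10, and leaving out PyMT control replicate 2 gave 0.36.

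**Figure D2:**
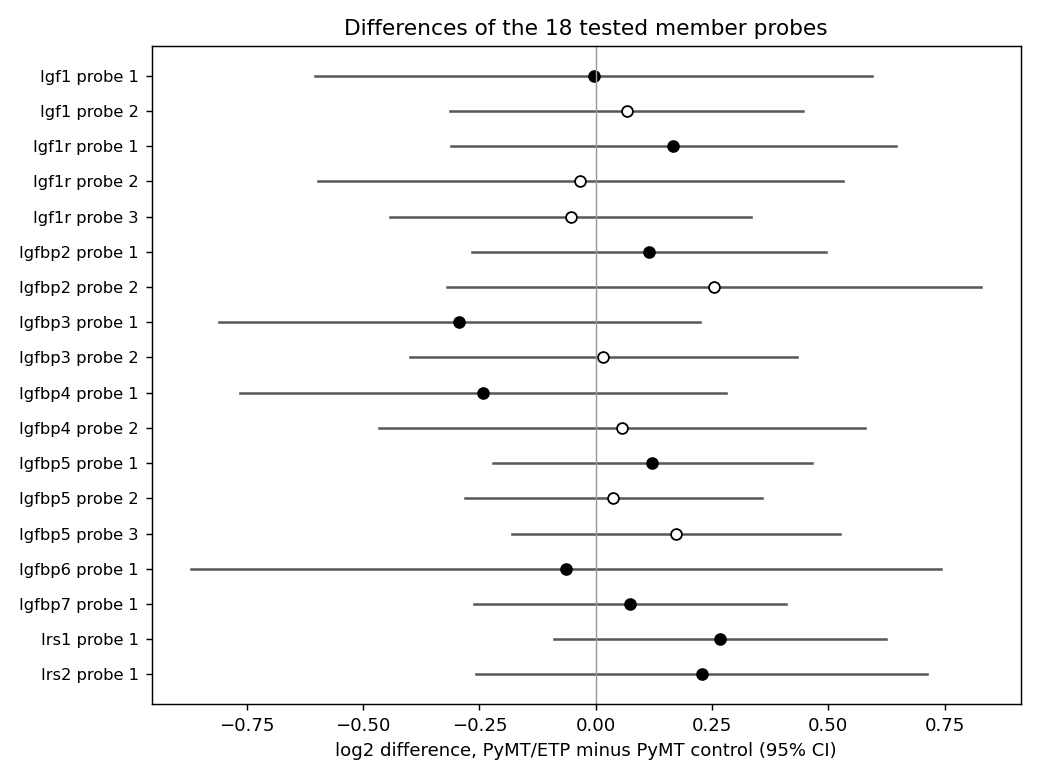
Log2 difference (PyMT/ETP minus PyMT control) of each of the 18 tested member probes, with its 95% confidence interval from limma's fit over all probes. Filled points are the brightest probe of a gene, and every interval includes 0.

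Probes of the same gene gave different signs in 4 of the 7 genes with more than 1 annotated probe. These were Igf1, Igf1r, Igfbp3 and Igfbp4. In Igfbp2 and Igfbp5 all tested probes were positive, and Igfbp7 had a single tested probe.

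Within the groups, the members spread differently. The SD was larger in the PyMT/ETP group for 7 of 10 genes, beside 46.4% of all genes, and its median over the members was 0.36 in PyMT/ETP and 0.21 in control tumours, against 0.19 and 0.20 over all genes. PyMT/ETP replicate 3 held the highest or the lowest value of 7 of the 10 genes, where it did so for 34.6% of all genes. It was highest for Igf1r, Igfbp7 and Irs2 and lowest for Igf1, Igfbp2, Igfbp4 and Igfbp6. PyMT control replicate 1 was below the 6-array mean for 9 of 10 genes, with a median deviation of -0.16, although its median deviation over all genes was -0.002. These counts were noticed after the values were seen and are descriptions, with no test of their own.

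**Figure D3:**
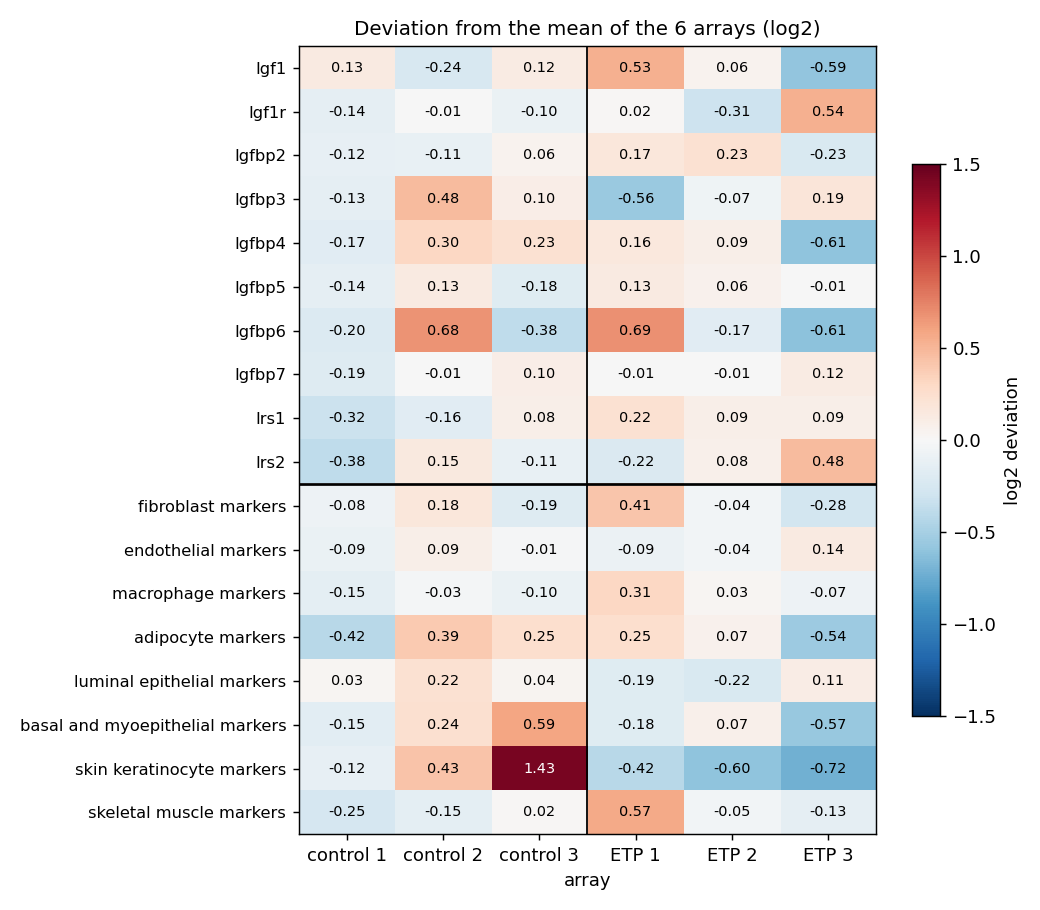
Deviation of each array from the mean of the 6 arrays (log2 units; red above, blue below) for the 10 genes and, below the line, the mean deviation of the tested genes of 8 cell type marker lists. PyMT/ETP replicate 3 reads -0.59 for Igf1, -0.61 for Igfbp4 and Igfbp6, 0.54 for Igf1r and 0.48 for Irs2.

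Marker genes of other cell types differed between the arrays alongside several members. In bulk tumour, fewer cells of a type and less RNA per cell cannot be told apart. Luminal epithelial markers were present as the tissue label implies, with 9 of 9 above the background limit on all 6 arrays, and their summed corrected intensity was 28172 to 33177 units in control and 23628 to 28927 in PyMT/ETP tumours. Fibroblast markers, 10 of 10 tested, had their highest mean deviation in PyMT/ETP replicate 1 (0.41), then PyMT control replicate 2 (0.18), and their lowest in PyMT/ETP replicate 3 (-0.28). The same 3 arrays were the highest, the second highest and the lowest for Igfbp6. Not all fibroblast genes followed their mean. Pdgfra and Postn were highest in PyMT control replicate 2 and Fap in PyMT/ETP replicate 2, the others in PyMT/ETP replicate 1. Col1a2, Pdgfra and Thy1 were lowest in PyMT control replicate 3, Pdgfrb in PyMT control replicate 1 and Postn in PyMT/ETP replicate 2. The others were lowest in PyMT/ETP replicate 3. The summed fibroblast signal was 4430 to 5543 units in control and 3683 to 7537 in PyMT/ETP tumours.

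Adipocyte markers had their lowest mean deviation in PyMT/ETP replicate 3 (-0.54) and their highest in PyMT control replicate 2 (0.39). On these arrays the brightest Igfbp4 probe was lowest and highest. The second Igfbp4 probe was highest in PyMT/ETP replicate 2, at 9.96 against 9.82 in PyMT control replicate 2. Of the 8 adipocyte markers 4 were tested, and Fabp4, Plin1 and Retn were not above the limit on enough arrays. Adipoq, Lep and Cidec were highest in PyMT control replicate 2, but Lipe was lowest there, at 4.52. The summed signal of the tested adipocyte markers was 161 to 503 units in control and 129 to 423 in PyMT/ETP tumours. PyMT/ETP replicate 1, the array with the highest Igf1, also had the highest mean deviation of the macrophage (0.31; 9 of 10 tested) and the skeletal muscle markers (0.57; 7 of 8 tested, Ckm not above the limit). Of the tested genes in these lists, only Cd14, Myh4 and Actn3 were not highest on that array. Actn3 was lowest there, at 4.60. The macrophage and muscle means were lowest in PyMT control replicate 1 (-0.15 and -0.25), whereas Igf1 was lowest in PyMT/ETP replicate 3. The summed macrophage signal was 7124 to 7530 units in control and 7054 to 9322 in PyMT/ETP tumours. The summed muscle signal was 521 to 652 and 555 to 1475 units. The mean deviation of the endothelial markers, 10 of 10 tested, was at most 0.14, in PyMT/ETP replicate 3, where Igfbp7 was also highest. Of these markers Kdr, Eng, Cldn5 and Esam were highest on that array, but Tek and Vwf were lowest there, at 6.11 and 6.20. Pecam1, Emcn and Vwf were highest in PyMT control replicate 2. The summed endothelial signal was 1257 to 1574 units in control and 1235 to 1601 in PyMT/ETP tumours. The part of these markers in the members' values was not tested.

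Basal and skin markers had their highest mean deviation in PyMT control replicate 3. Single genes differed: Krt17 and the skin gene Lor were highest in PyMT control replicate 2, and Acta2 and Myh11 in PyMT/ETP replicate 2. Skin keratinocyte markers, 4 of 7 tested, had a mean deviation of 1.43 in PyMT control replicate 3 and between -0.72 and 0.43 on the other arrays. Krt1, Dsg1a and Dsc1 were not above the limit, and the summed signal was 668 to 2596 units in control and 502 to 536 in PyMT/ETP tumours. Basal and myoepithelial markers, 6 of 8 tested with Oxtr and Cnn1 not above the limit, stood at 0.59 in PyMT control replicate 3 and at -0.57 in PyMT/ETP replicate 3. Their summed signal was 9528 to 15292 and 6343 to 10858 units. PyMT control replicate 3 held an extreme value of 1 of the 10 members, Igfbp5, where it did so for 39.5% of all genes. Leaving that array out turned the sign of 1 of the 10 genes, Igf1, to 0.05. The part of the skin and basal signal in the members' values was not tested.

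Of the tested marker genes, 8 had a positive and 2 a negative log2 difference in the fibroblast list, 6 and 4 in the endothelial, 8 and 1 in the macrophage, 0 and 4 in the adipocyte and 2 and 7 in the luminal list. In the basal list the counts were 1 and 5, in the skin list 0 and 4, and in the muscle list 6 and 1. The 2 marker genes with the smallest unadjusted p in each list all had adjusted p-values of 0.997 from limma. Their log2 differences were 0.36 for Col1a2 and -0.19 for Postn (fibroblast), -0.30 for Tie1 and 0.26 for Kdr (endothelial), and 0.41 for Adgre1 and 0.33 for Mpeg1 (macrophage). They were -0.34 for Adipoq and -0.14 for Lipe (adipocyte), -0.78 for Krt19 and -0.54 for Cldn4 (luminal), and -0.51 for Krt5 and -1.10 for Krt17 (basal). The skin genes Krtdap and Lor had -2.48 and -0.81, and the muscle genes Myh1 and Actn3 had 0.57 and -0.33. Postn, Kdr and Myh1 were dim, above the background limit on 3 of 6 arrays, and Lipe was above it on 4. The positive luminal genes were Epcam (0.41), with every PyMT/ETP tumour above every control, and Cdh1 (0.15). In 3 luminal genes, Krt8, Krt19 and Cldn4, every PyMT/ETP tumour was below every control. This was also so for 3 of the 4 tested skin genes, Krt10, Krtdap and Lor, and for Krt5 (basal) and Vwf (endothelial). For Adgre1 (macrophage) every PyMT/ETP tumour was above every control. Over all genes, 4.52% were apart in the higher and 3.65% in the lower direction.

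Of the other genes of the pathway, 57 were tested in 5 lists and 0 passed in either direction. Among other ligands, receptors and carriers, 5 of 10 genes were tested, 4 were positive and 1 negative, and the median log2 difference was 0.18. Igf2r, which takes up IGF2 for degradation, averaged 9.19 ± 0.23 in the control tumours and 9.46 ± 0.38 in those with endotrophin (SD, n = 3). This was a log2 difference of 0.27, and its other probe gave 0.06. Igfals, the acid-labile subunit that completes the circulating complex with IGFBP3, had -0.30. Its lowest array was PyMT/ETP replicate 1, at 9.14, as it was for Igfbp3. Ghr, the growth hormone receptor that drives Igf1 in liver, and Insr had 0.18 and 0.01.

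Igf2, the second ligand, was named after its values were seen. It was at 6.12, 6.17 and 6.08 in the control tumours and at 5.54, 7.93 and 5.54 in the PyMT/ETP tumours. PyMT/ETP replicate 2 alone was high, and the other PyMT/ETP tumours lay below all controls. The log2 difference was 0.22 with an SE of 0.56. In the same tumour Igf1 and Igfbp6, the binding protein that prefers IGF2, deviated by 0.06 and -0.17 from their means.

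Genes for proteases that cut binding proteins, and for inhibitors of these proteases, had 7 of 9 tested, 1 positive and 6 negative, with a median log2 difference of -0.20. Adamts1 and Adam28 had the smallest unadjusted p, with log2 differences of -0.24 and -0.20. Adam28 was dim, above the background limit on 3 of 6 arrays. Pappa, the IGFBP4 protease, was dim and had -0.24, and its inhibitor Stc2 had -0.40 (SE 0.41). No member of this list had groups that did not overlap.

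Receptor adaptors and feedback genes had 14 of 16 tested, 7 positive and 7 negative, with a median log2 difference of -0.01. Ptpn1, the phosphatase that removes phosphate from the insulin and IGF1 receptors, had 0.19 (SE 0.14), with every PyMT/ETP tumour at or above 8.96 and every control at or below 8.94, as was so in that direction for 4.52% of all genes. The exchange factor Sos2 had -0.17. Socs2, a target of growth hormone signalling, spread widely, with SDs of 0.91 and 0.87, and had 0.34 (SE 0.52).

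The PI3K, AKT and mTOR genes had 18 of 21 tested, 11 positive and 7 negative, and a median log2 difference of 0.02. Akt1, the kinase gene downstream of PI3-kinase, was at 5.27, 4.92 and 5.55 in the control and at 4.76, 4.54 and 4.78 in the PyMT/ETP tumours. Every PyMT/ETP value was below every control. The log2 difference was -0.55 (SE 0.18), and limma gave an unadjusted p of 0.0159 and an adjusted p of 0.997. Its only tested probe was dim, above the background limit on 5 of 6 arrays. Pik3cb, a catalytic subunit of PI3-kinase, also had groups that did not overlap, with means of 9.11 ± 0.13 in the control tumours and 8.89 ± 0.03 in the others (SD, n = 3). Over all genes, 3.65% were of that kind in that direction.

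FOXO factors and genes that they induce had 13 of 14 tested, 9 positive and 4 negative, with a median log2 difference of 0.05. Pik3ip1, an inhibitor of PI3-kinase, had 0.44 (SE 0.21) and the growth arrest gene Gadd45a 0.33 (SE 0.20), each with overlapping groups. Foxo1 and Foxo3 had -0.03 and -0.05. No median of a pathway list lay further from 0 than 0.20, and the median absolute difference over all genes was 0.12, against 0.14 over the 10 members.

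**Figure D4:**
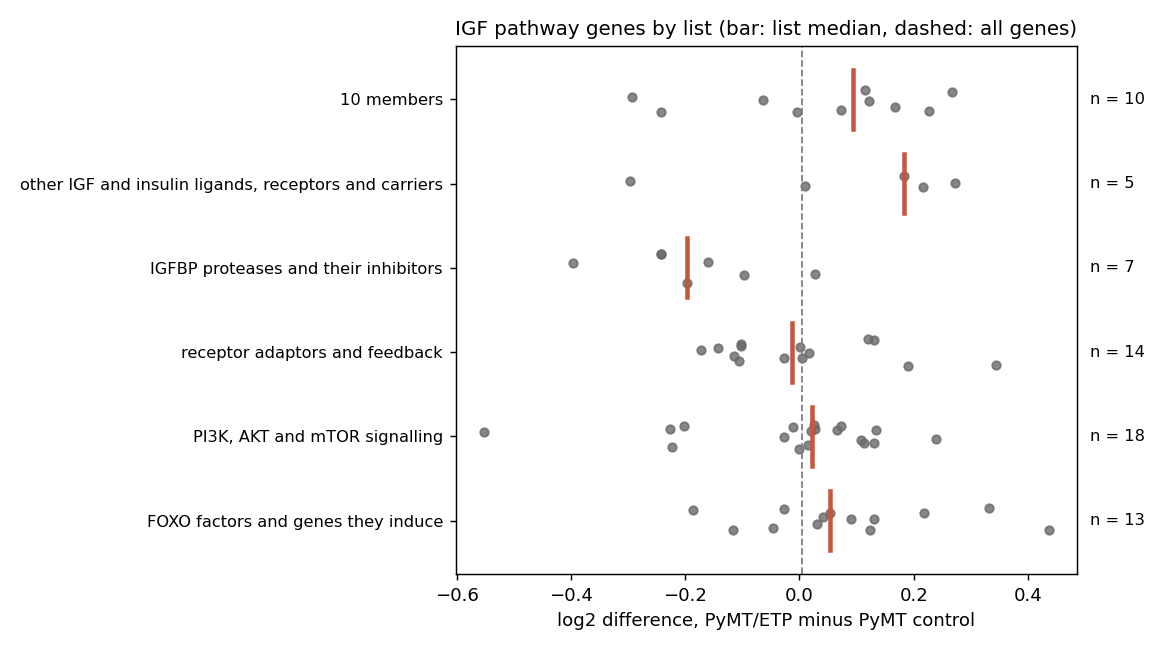
Log2 difference (PyMT/ETP minus PyMT control) of each tested gene in the list of 10 members and 5 lists of other pathway genes, with the list median as a red bar and the median of all genes, 0.004, as a dashed line. Vertical scatter within a list only separates points. Akt1 is the leftmost point, at -0.55, and no gene shown passed the test.

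The 2 members with the largest log2 SD, Igfbp6 and Igf1, were each set against 3019 other genes with an SD of at least 0.3. Pearson's r over the 6 arrays was the measure of likeness. The genes most like Igfbp6 were the glutathione transferase gene Gsto2 (0.987), the secretory-pathway cyclophilin gene Ppic (0.977) and Siglec1, a sialic acid receptor of macrophages (0.977). Gsto2 was dim, at 4.83 to 5.55 against a background limit of 4.61 in log2 units. Siglec1 was under that limit on PyMT control replicates 1 and 3 and PyMT/ETP replicate 3. Ppic was at 11.09 in PyMT control replicate 2 and 10.95 in PyMT/ETP replicate 1 and at 10.42 or below on the other arrays. Those most like Igf1 were the ketone body enzyme gene Bdh1 (0.968), the glycosyltransferase gene B4galnt3 (0.966) and the surface antigen gene Ly6d (0.954). Bdh1 was at 8.69 in PyMT/ETP replicate 1 and 7.32 in PyMT/ETP replicate 3. B4galnt3 was dim, at 4.53 to 5.46, and under the background limit on PyMT/ETP replicate 3, where Igf1 was lowest. With 6 arrays and this many genes, high values of r are met often: 12 genes reached more than 0.95 with Igfbp6 and 4 with Igf1. All 6 points of each pair came from the same arrays.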

How the data were processed

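RNA was extracted with Trizol, cleaned on columns and hybridised as biotin-labelled cRNA, per the labels' protocols. The authors deposited 1 normalized intensity per probe and array, on a linear scale. Software and normalization method are not given in the sources used. Sorted, the deposited intensity values of any 2 arrays lay within 0.185 of each other, so the same distribution had been imposed on all 6. A second table holds values from before normalization in 24 columns that no label pairs with samples. It was not used, and chip position was not tested as a batch.

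Background level (86.1) and SD (4.83) were estimated from the lowest 60% of all values, as the mode and the spread below it. The normexp model of limma with these parameters gave corrected values, which were offset by 16 and put on the log2 scale. A probe was tested if it exceeded 94.0 (the 5% limit) on at least 3 arrays (24893 probes, 12864 genes). Each gene took its brightest tested probe. Symbols came from the platform annotation, with 34885 probes of 1 symbol, 18 of several and 10378 of none, and were updated through gene identifiers for 34807. Groups were compared with limma 3.58.1 in R 4.3.3 (lmFit and eBayes, two-sided, Benjamini-Hochberg adjustment over all probes or genes). The fit was also run on simulated data. The changes put into them were all larger than any member's difference, so that run cannot show whether differences as small would be found.

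All 10 members were named. From each other list the 2 genes of smallest unadjusted p were named, and further list genes were named after their values were seen. The 3 genes most alike in pattern to the 2 most variable members were also named. Members and lists were chosen with earlier results of these data known.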

Additional observations from a re-analysis of the deposited data

How the results depend on the processing

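Under 16 alternatives 0 member genes and 0 genes of the pathway lists passed, and 0 member probes under the 15 that test probes (not the averaged probes). Over all genes 0% passed under 14 of them, 0.124% (16 of 12864) without PyMT control replicate 1 and 0.00777% (1 gene) without PyMT control replicates 2 and 3. These were no background correction, an offset of 50, no filter on dim probes, a stricter background limit, cyclic loess, array weights, an intensity trend, the replicate block, averaging the probes of a gene, each array left out, and PyMT control replicates 2 and 3 left out together. The last was chosen after seeing the data, and its lone control is assumed to vary like the other group. Of the 160 member values, 145 kept their sign and 15 turned it, and the lowest adjusted p in limma's test was 0.849. The signs of Igfbp2, Igfbp3, Igfbp5, Irs1 and Irs2 held throughout. Igf1 (-0.004) read 0.0134 without background correction, 0.0108 with offset 50, 0.0531 with array weights and 0.0312 with averaged probes. With 1 array left out it ran from -0.27 to 0.29, Igf1r from -0.0602 to 0.36, Igfbp4 from -0.39 to 0.00278, Igfbp6 from -0.42 to 0.26 and Igfbp7 from -0.00579 to 0.14. Without PyMT control replicates 2 and 3, Igfbp4 read 0.0504 and Igfbp6 0.17. The cause was not tested. Same-numbered arrays did not deviate together (r of -0.06, -0.06 and -0.11 over 12864 genes). With 3 arrays per group, each taken relative to its group mean, this cannot decide whether the numbers pair the samples. With the replicate block 0 members passed. Signal over background limits Igf1, Irs1, Igfbp6, the weaker Igf1r probes, Akt1 and the other list genes called dim above.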
